A study of Homo sapiens with 11 samples.

Results

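The S100 genes described here are 10 members of the S100 family of calcium-binding proteins: S100A7, S100A7A, S100A8, S100A9, S100A2, S100A4, S100A6, S100A10, S100A11 and S100P. They were taken by name from 22395 genes that have a probe set of their own on the array, and each of the 10 had 1 probe set. A gene was tested where its value reached the middle of the probe set means (their median, 2.53) on 2 arrays or more, which the members did on all 11, so all 10 were among the 15865 genes tested. MDA-MB-468 is an established human breast cancer line, from a metastatic pleural effusion, that lacks hormone receptors and carries high EGFR. RNA was taken after 24 h from 4 groups of these cells on GeneChip Human Gene 2.1 ST arrays: 3 arrays of cells with no treatment (control), 3 of cells given TNFɑ at 40 ng/ml (TNF), 2 of cells given apigenin, a plant flavone, at 40 μM, and 3 of cells given both at those doses. Nothing else distinguishes the groups in the labels. All arrays come from 1 cell line, and whether the numbered replicates were separate cultures is not said, so the p-values measure only the spread between these arrays.

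S100 proteins are small proteins with paired EF-hand loops that bind calcium, mostly work as dimers, and act both inside cells and, once released, on receptors such as RAGE and TLR4. S100A8 and S100A9 form calprotectin, which withholds zinc and manganese from microbes and is made by neutrophils, monocytes and stressed epithelium. S100A7 (psoriasin) and its close copy S100A7A (koebnerisin) belong to inflamed skin, and S100A7 is also known from breast carcinoma in situ. The genes lie together in the epidermal differentiation complex, except for S100P, which lies on chromosome 4.

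Apigenin lowered the 4 genes of the calprotectin and psoriasin group. In the genome these follow one another apart from S100A12 and S100A7L2, which were not tested. The order on chromosome 1 in RefSeq (GRCh38.p14) is S100A9, S100A12, S100A8, S100A7A, S100A7L2, S100A7, S100A6, with 0 other protein-coding genes between them. The upstream sequences of the 4 lowered genes are shown because the genes moved together, and because S100A7 and S100A7A are near copies. Each run is the 250 bases before a RefSeq start site on GRCh38.p14, written 5′ to 3′ on the strand of the gene, and capitals mark matches to the motifs named after the sequences. The positions are chr1:153460652-153460901 (minus strand) for S100A7, chr1:153416270-153416519 (plus strand) for S100A7A, chr1:153391074-153391323 (minus strand) for the second of 3 listed starts of S100A8, and chr1:153357604-153357853 (plus strand) for S100A9.
S100A7: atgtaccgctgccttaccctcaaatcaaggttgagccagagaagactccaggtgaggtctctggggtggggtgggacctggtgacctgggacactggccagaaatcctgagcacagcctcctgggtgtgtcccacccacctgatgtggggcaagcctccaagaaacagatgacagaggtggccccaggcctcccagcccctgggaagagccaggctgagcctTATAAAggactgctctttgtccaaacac
S100A7A: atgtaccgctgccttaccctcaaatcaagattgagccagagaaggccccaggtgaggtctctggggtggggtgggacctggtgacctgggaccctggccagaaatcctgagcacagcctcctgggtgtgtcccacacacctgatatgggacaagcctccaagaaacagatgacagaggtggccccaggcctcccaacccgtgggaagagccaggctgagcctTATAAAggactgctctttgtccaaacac
S100A8: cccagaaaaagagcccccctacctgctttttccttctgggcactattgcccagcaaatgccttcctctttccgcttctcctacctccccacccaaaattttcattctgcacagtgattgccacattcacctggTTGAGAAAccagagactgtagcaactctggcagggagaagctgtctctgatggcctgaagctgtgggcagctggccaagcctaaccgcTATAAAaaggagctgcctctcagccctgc
S100A9: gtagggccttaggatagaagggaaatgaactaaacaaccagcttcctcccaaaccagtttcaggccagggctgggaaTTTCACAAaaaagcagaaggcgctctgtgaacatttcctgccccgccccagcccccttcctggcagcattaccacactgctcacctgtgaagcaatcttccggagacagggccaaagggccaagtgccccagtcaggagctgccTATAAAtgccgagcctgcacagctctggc

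The upstream sequences of S100A7 and S100A7A were identical at 241 of 250 aligned positions (96.4%). For the other 44 pairs of members, with the first listed start of each, identity lay between 44.6% and 54.7% of aligned columns. A TATAAA box ended at base -23 from the start in S100A7 and S100A7A and at base -24 in S100A9 and at the second start of S100A8. The first listed start of S100A8, used for the identities, had no match to it, and at the third it ended at base -121. Of the 10 members, 6 had TATAAA in at least 1 of their upstream sequences: all 4 lowered genes, and 2 of the other 6, S100A4 and S100P. Counted by upstream sequence, it was in 7 of the 13 listed for the members. In RefSeq 10.7% of 35116 upstream sequences of this length hold it on either strand.

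5 more motifs were searched on both strands. The C/EBP pattern TTNCNNAA was found in S100A8 and S100A9 and in 3 of the other 6 members. It was in 6 of the 13 upstream sequences of the members, and 33.2% of all sequences hold it. The core of the aryl hydrocarbon receptor site, GCGTG, was found in 0 of the 4 lowered genes and in S100A2, S100A6, S100A10 and S100A11. That is 4 of the 13 upstream sequences, against 32.2% of all sequences. The AP-1 pattern TGANTCA was found in S100A2 (1 of the 13 upstream sequences, against 6.57% of all sequences). Neither the NF-kB motif (5.07% of all) nor the STAT pattern TTCNNNGAA (6.57%) was found in any of the 13 listed upstream sequences of the members. Within 1 upstream sequence no match overlapped another. The windows of the last 2 listed S100A8 starts overlap, so its TATAAA box and a C/EBP match lie in both. A match describes these letters in this window and is not a measured binding site.

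Of the series as a whole, arrays of 1 group correlated at 0.969 to 0.987 over the genes tested. Array apigenin 1 stood apart, with a median of 3.89 and an interquartile range of 2.4 over those genes, against medians of 4.08 to 4.32 on the other 10 arrays. Of 11 markers of this epithelial line, 10 had a probe set and all 10 had means above 2.53 on the log2 scale, while ESR1 (mean 2.35) and PGR (mean 1.49) lay below it. Values are on the log2 scale throughout, and a group mean within 1 log2 unit of 2.53 is treated as near background and gets no fold change. Arrays compare a gene with itself across groups, so no member's level is set against another's.

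**Figure D1:**
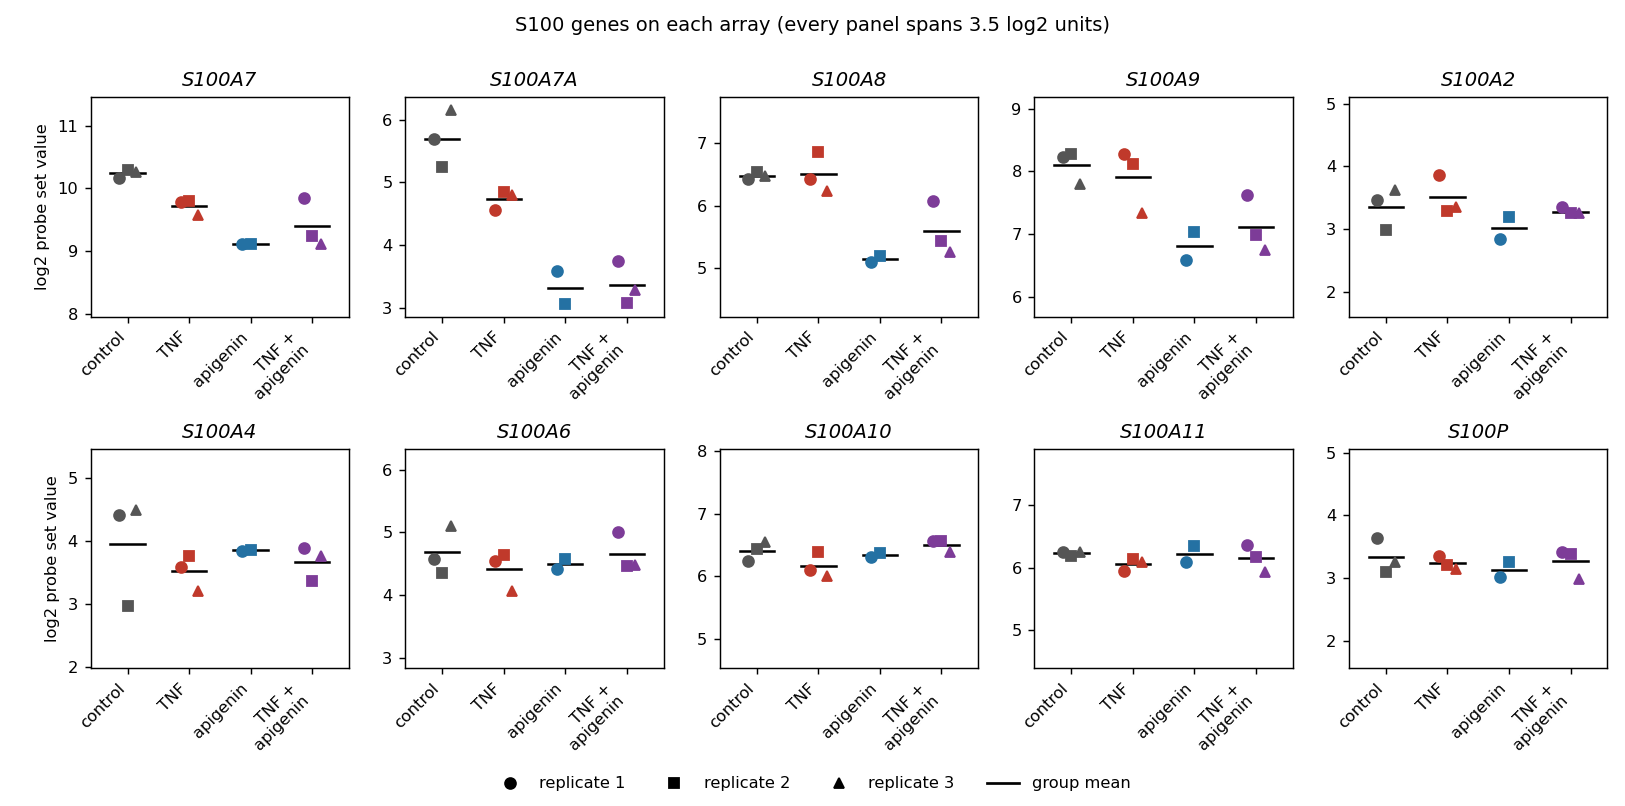
Log2 probe set values of the 10 S100 genes on every array, by group (bars are group means, symbols give the replicate number, and each panel spans 3.5 log2 units). S100A7, S100A7A, S100A8 and S100A9 are lowest with apigenin or with TNF plus apigenin, and the other 6 genes show overlapping groups for apigenin against control.

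S100A7A moved most. Its values were 5.69, 5.24 and 6.16 on the control arrays, 4.56, 4.85 and 4.80 with TNF, 3.58 and 3.06 with apigenin and 3.75, 3.07 and 3.29 with TNF plus apigenin. Every array with apigenin lay below every array without it, and the TNF arrays lay between the control arrays and those with apigenin. Apigenin alone lowered it by 2.37 on the log2 scale (change -2.37 ± 0.27, SE; 95% interval -2.95 to -1.79; limma adjusted p = 0.000408), from 5.70 ± 0.46 (SD, n = 3) to 3.32 ± 0.37 (SD, n = 2), which is near background. This call held in each fit that left out 1 array and under each other setting tried.

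S100A7, the psoriasin gene, was at 10.16, 10.30 and 10.26 in control, 9.78, 9.80 and 9.57 with TNF, 9.12 and 9.11 with apigenin and 9.85, 9.24 and 9.12 with TNF plus apigenin. Both apigenin arrays lay more than 1 log2 unit below the lowest control array (gap 1.05). The change was -1.13 ± 0.22 (SE), a 2.18-fold fall (95% interval -1.59 to -0.67; limma adjusted p = 0.0111). It was as large but no longer called without apigenin 1 (-1.13, adjusted p = 0.0895) and with array weights (-1.12, adjusted p = 0.0589). Whether probes for S100A7 also bind S100A7A transcripts, or the reverse, was not tested.

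S100A8 and S100A9, the subunits of calprotectin, both fell. S100A8 was at 6.43, 6.54 and 6.47 in control, 6.43, 6.86 and 6.24 with TNF, 5.10 and 5.19 with apigenin and 6.07, 5.44 and 5.26 with TNF plus apigenin. The apigenin arrays lay 1.23 below the lowest control array, and the change of -1.33 ± 0.24 (SE) is a 2.51-fold fall (limma adjusted p = 0.00911). S100A9 was at 8.23, 8.28 and 7.80 in control, 8.28, 8.12 and 7.33 with TNF, 6.59 and 7.03 with apigenin and 7.63, 6.99 and 6.75 with TNF plus apigenin. It fell by 1.29 (change -1.29 ± 0.3, SE), or 2.44-fold, with the limma adjusted p at 0.0308.

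The call of S100A8 was lost without apigenin 1 (-1.28, adjusted p = 0.0937) and with array weights (-1.32, adjusted p = 0.0518). That of S100A9 was lost without apigenin 1 (-1.07, adjusted p = 0.278), without control 1 (-1.23, adjusted p = 0.111), without control 2 (-1.2, adjusted p = 0.062), without control 3 (-1.44, adjusted p = 0.0519), after quantile normalization (-0.96, adjusted p = 0.053) and with array weights (-1.19, adjusted p = 0.163). In bulk RNA, fewer cells that express a gene and less RNA per cell cannot be told apart.

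The other 6 members did not pass the test for apigenin against control. S100A10, the annexin A2 partner, was at 6.25, 6.44 and 6.55 in control and 6.31 and 6.37 with apigenin, a difference of -0.07 (95% interval -0.47 to 0.33; limma adjusted p = 0.878). S100A11, which binds annexin A1, was at 6.25, 6.18 and 6.25 in control and 6.09 and 6.35 with apigenin, a difference of -0.01 (95% interval -0.4 to 0.39). For both genes the groups overlapped, and the intervals leave out a fall of the size seen in S100A7. S100A6 (calcyclin) differed by -0.19 (95% interval -0.73 to 0.35) and S100A4, a gene linked to metastasis, by -0.1 (95% interval -0.86 to 0.67). S100A4 has the widest of these intervals, and control 2 lay at 2.96 against 4.42 and 4.49 on the other control arrays. S100A2, an epithelial member, and S100P, known from pancreatic and other carcinomas, lay within 1 log2 unit of background in every group, and differed by -0.35 (95% interval -0.84 to 0.15) and -0.19 (95% interval -0.64 to 0.26).

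In all, limma called 4 of the 10 members as lower and 0 as higher with apigenin alone, where 3.44% of all genes tested were called lower. The median change of the members was -0.27, beside -0.18 over all genes. The 4 called members had groups that did not overlap, as did 26.9% of all genes in that direction. Of the 581 genes called, 94.0% were lower, but 75.5% after quantile normalization. That scaling brought the median of all genes to -0.03, and there S100A7A was at -2.24, S100A8 at -1.04 and S100A7 at -0.93, all 3 still called (limma adjusted p = 0.00221, 0.0189 and 0.0145). The signs of S100A4 (0.08), S100A6 (0.02), S100A10 (0.25) and S100A11 (0.31) turned to positive under it, without a call.

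**Figure D2:**
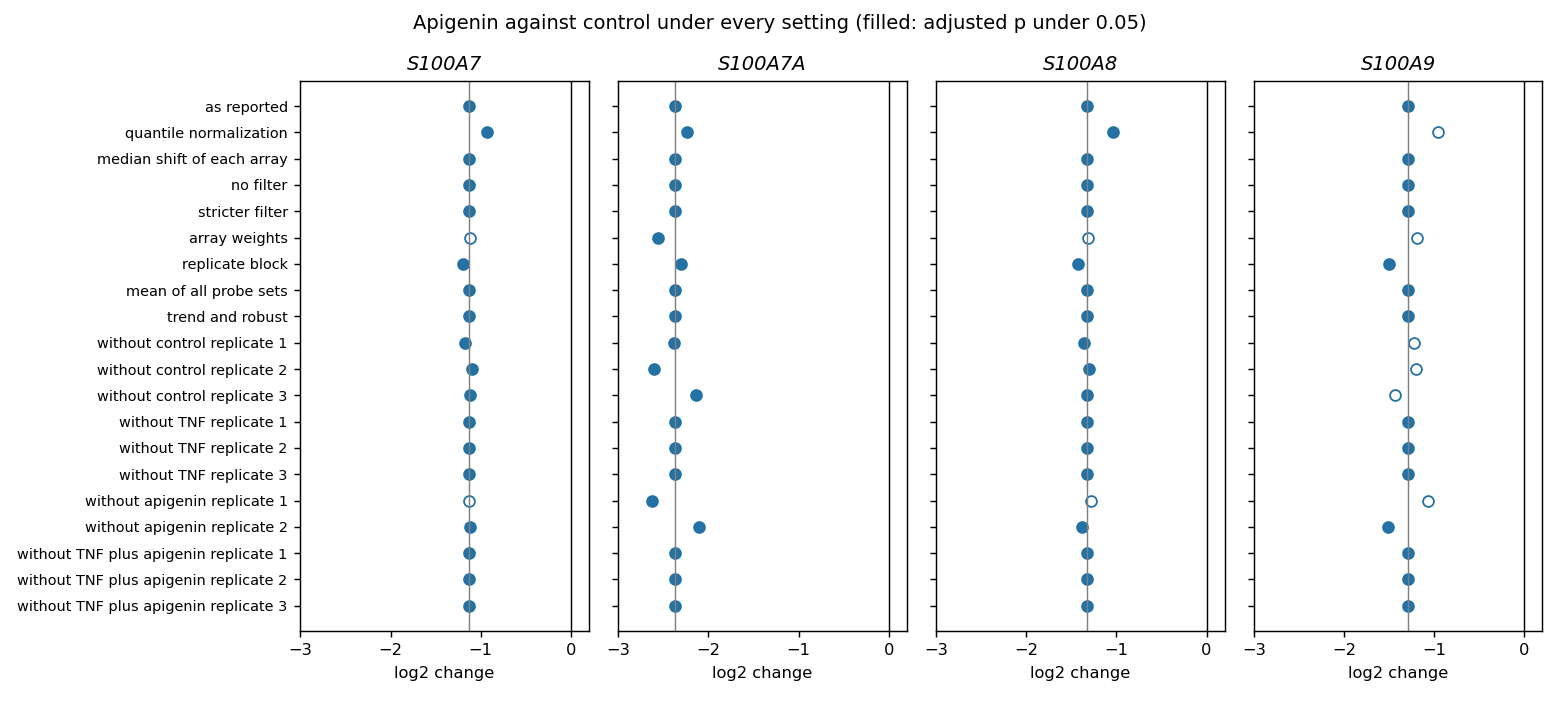
Log2 change of 4 S100 genes for apigenin against control under every setting tried (rows; filled points have an adjusted p under 0.05, the grey line is the reported value). S100A7A is called in every row, and S100A7 and S100A8 lose their calls without apigenin replicate 1 and with array weights while staying at -1.13 and -1.12 and at -1.28 and -1.32.

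TNF alone gave no call among the members. S100A8 differed from control by 0.03 ± 0.22 (SE; 95% interval -0.43 to 0.5; limma adjusted p = 0.996) and S100A9 by -0.19 ± 0.27 (95% interval -0.77 to 0.39; limma adjusted p = 0.962), and for both the arrays of the groups overlapped. S100A7A lay 0.96 below control (change -0.96 ± 0.24, limma adjusted p = 0.122) and S100A7 0.52 below (change -0.52 ± 0.19, limma adjusted p = 0.446). In these 2 genes all 3 TNF arrays lay below all 3 control arrays, by gaps of 0.39 and 0.36. With array weights S100A7A was called for TNF (-1.13, limma adjusted p = 0.0162). Limma called 0 of the 10 members, where 0.7% of all genes tested were called in either direction, and 2 members had an unadjusted p under 0.05, as did 7.41% of all genes. The groups did not overlap in 3 of 10 members, all lower (8.72% of all genes): S100A7, S100A7A and S100A11, the last with a gap of 0.03. The remaining 5 members had changes between -0.44 (S100A4) and 0.15 (S100A2), and their groups overlapped.

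With both agents, 3 members were below control. S100A7A was at 3.37 ± 0.35 (SD, n = 3), lower than control by 2.32 (change -2.32 ± 0.24, SE; limma adjusted p = 0.000119), a call that held under every setting. S100A7 was at 9.40 ± 0.39 (SD, n = 3), a change of -0.84 ± 0.19 or 1.79-fold (limma adjusted p = 0.0309). S100A8 was at 5.59 ± 0.43 (SD, n = 3), a change of -0.89 ± 0.22 or 1.85-fold (limma adjusted p = 0.0416). S100A9 was at 7.12 ± 0.45 (SD, n = 3) and did not pass, at -0.98 ± 0.27 (limma adjusted p = 0.0729), although its arrays lay below all control arrays.

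In S100A7, S100A8 and S100A9 the first replicate of the combined treatment was the highest of its group and the other two lay lower, near the apigenin arrays. The calls of S100A7 and S100A8 were lost without control 1 (adjusted p = 0.0834 and 0.115), control 2 (0.0825 and 0.106), control 3 (0.0917 and 0.109), TNF plus apigenin 2 (0.138 and 0.167) or TNF plus apigenin 3 (0.121 and 0.156), and that of S100A8 also without TNF 1 (0.0519) or without a filter on low values (0.0599), with changes between -0.91 and -0.7. S100A9 was called without TNF plus apigenin 1 (-1.23, adjusted p = 0.0368), without TNF 3 (-0.98, adjusted p = 0.0407) and after quantile normalization (-0.93, adjusted p = 0.0261). Limma called 3 of 10 members lower, where 1.78% of all genes were, and 4 of 10 had arrays that all lay below control, as in 11.4% of all genes. The members' median was -0.18 beside -0.02 over all genes. This comparison shares its control arrays with apigenin alone and with TNF alone.

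**Figure D3:**
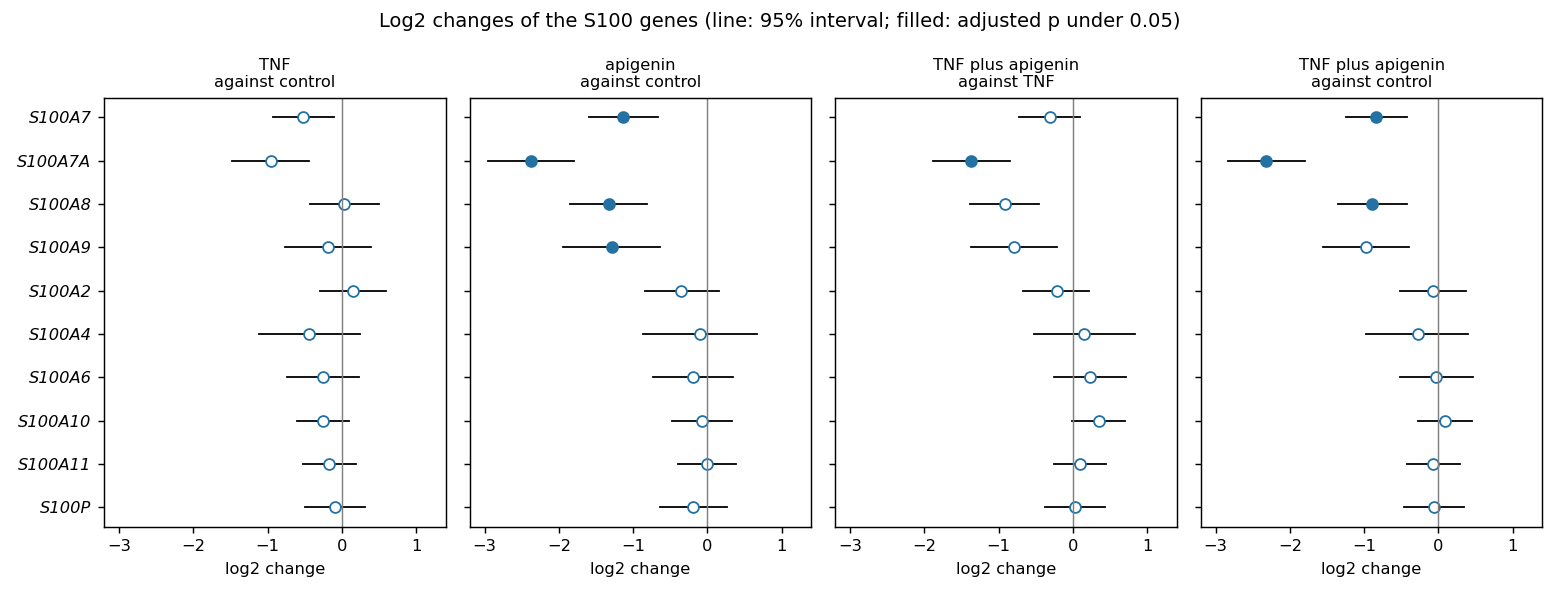
Log2 changes of the 10 S100 genes in 4 comparisons, with 95% intervals (filled points have an adjusted p under 0.05). Filled points are found in S100A7A for 3 comparisons, in S100A7 and S100A8 for 2, and in S100A9 for apigenin against control.

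Against TNF alone, adding apigenin lowered S100A7A. It went from 4.74 ± 0.15 to 3.37 ± 0.35 (SD, n = 3 each), a change of -1.37 ± 0.24 (SE; limma adjusted p = 0.0114), and the groups were 0.81 apart. The call was lost without TNF 2 (-1.31, adjusted p = 0.0599), without TNF plus apigenin 2 (-1.22, adjusted p = 0.0716) and without TNF plus apigenin 3 (-1.33, adjusted p = 0.0571). S100A8 lay 0.92 lower (change -0.92 ± 0.22, limma adjusted p = 0.0617) with groups 0.17 apart. It passed after quantile normalization (-0.95, adjusted p = 0.0161), after a median shift, with a stricter filter, with array weights, with a variance trend and without TNF plus apigenin 1 (-1.16, adjusted p = 0.025). S100A9 (-0.79 ± 0.27, limma adjusted p = 0.248) and S100A7 (-0.31 ± 0.19, limma adjusted p = 0.611) had overlapping groups. Limma called 1 of 10 members lower, where 0.681% of all genes were. In 2 of 10 all arrays lay lower, as in 7.05% of all genes. The medians were -0.1 for the members and 0.02 for all genes. S100A10 lay 0.35 higher (95% interval -0.01 to 0.7; limma adjusted p = 0.473).

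Compared with apigenin alone, TNF plus apigenin changed no member past the threshold. S100A7A differed by 0.05 ± 0.27 (95% interval -0.53 to 0.63; limma adjusted p = 0.956), with overlapping arrays, and S100A8 by 0.44 ± 0.24 (95% interval -0.08 to 0.96; limma adjusted p = 0.388). Both S100A7A means (3.32 with apigenin, 3.37 with TNF plus apigenin) are near background, which limits what fall could be seen there. Limma called 0 of 10 members, where 0.574% of all genes were called, and 0 members had an unadjusted p under 0.05, against 15.7% of all genes. The arrays of S100A7, S100A8, S100A2 and S100A10 were all higher with TNF plus apigenin, as in 20.9% of all genes, by gaps of 0.06 or less. Over all genes 7.69% of the calls were lower, and 18.8% after quantile normalization, under which S100A7A lay at -0.05 and S100A10 at -0.12.

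The interaction compared the TNF effect with apigenin and without it. It was 1.0 ± 0.36 for S100A7A (limma adjusted p = 0.551) and 0.81 ± 0.29 for S100A7 (limma adjusted p = 0.54). The S100A7A means in both groups with apigenin (3.32 and 3.37) are near background, which limits how well its interaction is known. Limma called 0 of 10 members, where 0.0252% of all genes were called. S100A7A and S100A7 had an unadjusted p under 0.05, as did 8.16% of all genes. The median over all genes was 0.23, and 0.02 after quantile normalization, where S100A7A was at 0.85 and S100A7 at 0.64. The intervals of S100A8 (-0.29 to 1.11) and S100A9 (-0.37 to 1.37) included 0.

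The order of the group means can be read for each of the lowered genes. For S100A7A and S100A7 control was highest and TNF next, a step that did not pass the test, followed for S100A7A by the combination and apigenin, which did not differ beyond their spread. For S100A7 the combination (9.40) overlapped the TNF arrays, and its lowest array was at the level of the apigenin arrays (9.12). In S100A8 and S100A9 control and TNF did not differ beyond their spread, and neither did the combination and apigenin alone in S100A9. In S100A8 the lowest array of the combination was 0.06 above the higher apigenin array, a step that did not pass the test.

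Across the 11 arrays the 4 lowered genes correlated with each other at 0.76 to 0.92 (Pearson, 6 pairs), highest for S100A8 with S100A9 and lowest for S100A7A with S100A9. With the other 6 members they correlated at -0.17 to 0.51. These values describe 11 arrays in 4 groups, share the fall with apigenin, and carry no p. The tested genes most like each by the same measure were PLAAT4 (0.977), NCCRP1 (0.968) and CD14 (0.957) for S100A7, and GLUL (0.964), VGLL1 (0.963) and BRINP2 (0.955) for S100A7A. They were LANCL2 (0.967), TMEM14C (0.964) and GLA (0.958) for S100A8, and GALNS (0.982), PSMC3 (0.977) and CHD3 (0.968) for S100A9. For the other 6 members the closest gene was at 0.909 to 0.951.

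CD14 is a monocyte marker, and S100A8 and S100A9 are abundant in myeloid cells, so the other myeloid markers were examined. Of 15 markers 14 had a probe set, and 9 of them had means at or below 2.53, among them PTPRC (1.46), CD163 (1.78), FCGR3B (1.82), MPO (2.15) and ELANE (2.45). The other 5 had means above it: CD14 (5.23), CSF1R (4.27), FCN1 (3.37), TYROBP (2.79) and ITGAM (2.64). The summed linear level of the 14 was 164 to 189 in control, 115 to 127 with TNF, 105 to 107 with apigenin and 91.8 to 110 with both. Without CD14, the other 13 summed to 83.5 to 85.9 in control, 77.5 to 86.0 with TNF, 83.2 to 86.4 with apigenin and 74.0 to 79.5 with both, the last wholly below control. CD14 itself fell by 2.06 with apigenin (change -2.06 ± 0.23, limma adjusted p = 0.000354). It was also lower with both agents (-1.97, limma adjusted p = 0.000119) and with TNF (-1.22, limma adjusted p = 0.00829). The TNF call was lost without control 2 (-1.1, limma adjusted p = 0.0523) or TNF 3 (-1.12, limma adjusted p = 0.0564). Of the 8 markers tested CD14 alone was called for apigenin, where 3.44% of all genes were called lower. The part of CD14 in the results for S100A8 and S100A9 was not tested.

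Among 11 further S100 genes with a probe set, 6 were tested and S100A14 was called. S100A14, an epithelial member, was at 8.73, 8.56 and 8.70 in control, 8.26, 8.10 and 7.96 with TNF, 7.92 and 7.97 with apigenin and 7.86, 7.81 and 7.54 with both. Each treatment put all arrays below control, as in 8.72% of all genes for TNF, 26.9% for apigenin and 11.4% for both. Limma called 3.44% of all genes lower with apigenin and 1.78% with both. The change passed for the combination (-0.93 ± 0.16, limma adjusted p = 0.00635; called in all 11 fits that left out an array) and for apigenin (-0.72 ± 0.18, limma adjusted p = 0.0432), and not for TNF (-0.56 ± 0.16, limma adjusted p = 0.235). The apigenin call was lost in 9 of those 11 fits, all except those without control 2 or TNF plus apigenin 3, with changes between -0.77 and -0.69. It was also lost after quantile normalization (-0.47, adjusted p = 0.077) and with array weights (-0.75, adjusted p = 0.106). S100A3, expressed in hair cuticle, lay 0.81 below control with apigenin (change -0.81 ± 0.28, limma adjusted p = 0.122) and S100A16 0.42 below (change -0.42 ± 0.23, limma adjusted p = 0.338). S100A13 differed by -0.1 (limma adjusted p = 0.827). The median of the 6 was -0.28 for apigenin, beside -0.18 over all genes, and S100B passed the filter through 2 arrays.

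**Figure D4:**
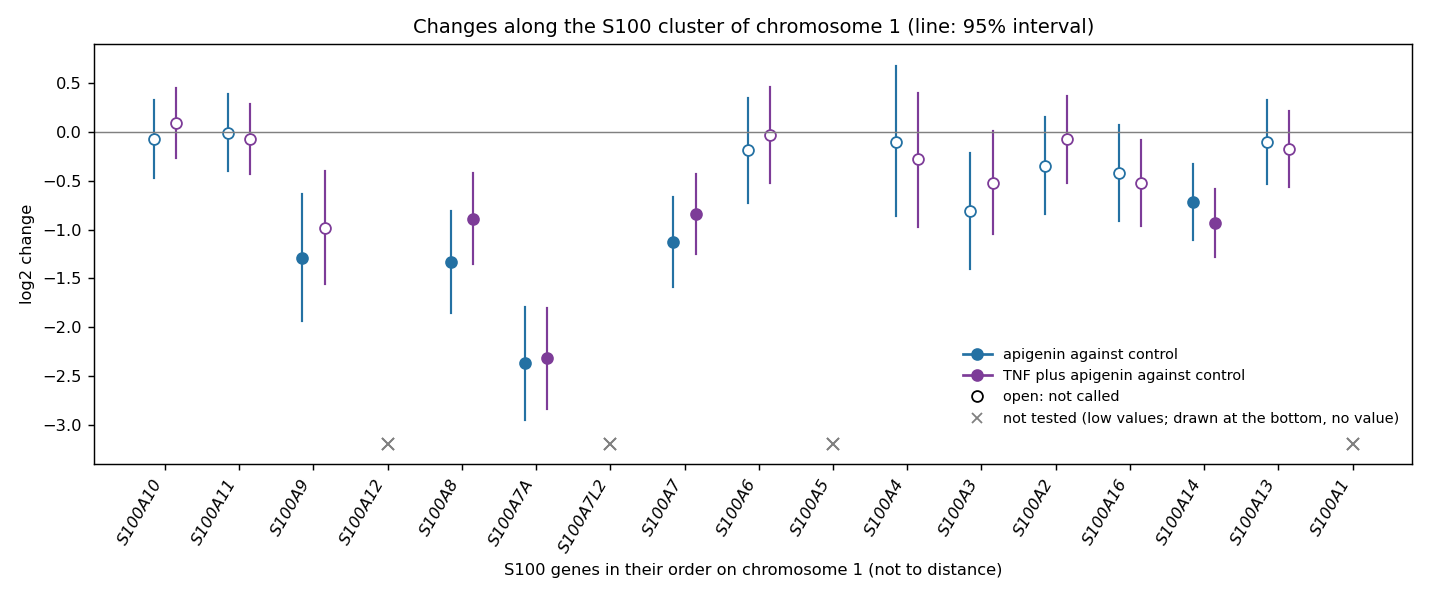
Log2 changes of the S100 genes of chromosome 1 in genome order, for apigenin and for TNF plus apigenin against control (lines are 95% intervals, filled points are called, crosses mark genes not tested). For apigenin the called genes are S100A9, S100A8, S100A7A and S100A7, which follow one another apart from the untested S100A12 and S100A7L2, and S100A14 (-0.72). For the combination S100A14 lies at -0.93, beside -0.89 for S100A8 and -0.84 for S100A7.

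Of 18 tested partners and receptors of S100 proteins, from a list of 24, 1 was lower with apigenin (ALCAM, an adhesion molecule, -0.97 ± 0.23, limma adjusted p = 0.0283), 1 with the combination (AHNAK, a scaffold bound by S100A10, -0.74 ± 0.19, limma adjusted p = 0.0477), and 0 with TNF by limma, where 2 had an unadjusted p under 0.05. Over all genes 3.44% were called lower with apigenin and 1.78% with the combination, and 7.41% had an unadjusted p under 0.05 for TNF. ALCAM was not called without control 1 (-0.89, adjusted p = 0.115), control 3 (-1.01, adjusted p = 0.0742) or apigenin 1 (-0.64, adjusted p = 0.304), nor with array weights (-0.97, adjusted p = 0.0858). AHNAK lost its call in 7 of 11 fits that left out an array (changes -0.82 to -0.68, adjusted p up to 0.177), with no filter on low values (adjusted p = 0.0579) and with a replicate block (adjusted p = 0.068). ANXA2, the annexin that holds S100A10 at the membrane, differed from control by -0.25 with apigenin (95% interval -0.84 to 0.35) and by -0.08 with TNF (95% interval -0.61 to 0.45). AGER, the gene of RAGE, differed by 0.38 with apigenin (95% interval -0.11 to 0.87; limma adjusted p = 0.382), and TLR4 was not tested (group means 2.02 to 2.20). The list's median for apigenin was -0.25, beside -0.18 over all genes.

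Of 4 tested fused S100 genes, which join an S100 domain to long repeats, limma called 1 as lower with apigenin, against 3.44% of all genes. The median of the 4 was -0.49, beside -0.18 over all genes. TCHH, the trichohyalin gene, fell to a mean near background (3.18; -0.88 ± 0.17, limma adjusted p = 0.0128); without control 1 (-0.8, adjusted p = 0.0676) or apigenin 1 (-0.88, adjusted p = 0.0808) it was not called. TCHHL1, the trichohyalin-like gene, had a larger difference that did not pass (-1.12 ± 0.3, limma adjusted p = 0.0537). Its apigenin mean (3.2) is also near background, and its groups did not overlap, as in 26.9% of all genes in that direction. Of 17 tested cornified envelope and epidermal differentiation genes limma called 0 with apigenin, and their median was 0.01. For the 2 that lay lower at an unadjusted p under 0.05 no share over all genes is given, so nothing is read from that count. With TNF limma called 1 of the 17, as higher, where 0.7% of all genes tested were called in either direction. This was PGLYRP4, a peptidoglycan recognition protein, which rose by 2.67 ± 0.24 (limma adjusted p = 2.65e-05) from a control mean of 3.53. That mean lies at the edge of near background, which limits how well the size of its rise is known. PGLYRP4 was lower with TNF plus apigenin than with TNF by 1.44 (change -1.44 ± 0.24, limma adjusted p = 0.00712).

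Calprotectin is an antimicrobial protein of epithelium, and other genes of that kind were listed beside it. Of 14 tested, TNF raised SAA1, an acute-phase protein, by 1.95 ± 0.23 (limma adjusted p = 0.000336) and the chemokine gene CCL20 by 2.52 ± 0.35 (limma adjusted p = 0.00129). For TNF 0.7% of all genes tested were called in either direction. The control mean of CCL20 (2.62) is near background, which limits how well the size of its rise is known. Limma called 0 of the 14 with apigenin, where 3.44% of all genes were called lower. Their median was -0.13, beside -0.18 over all genes. For the 3 that lay lower at an unadjusted p under 0.05 no share over all genes is given, so nothing is read from that count. With apigenin added to TNF, SAA1 was lower by 1.37 than with TNF (change -1.37 ± 0.23, limma adjusted p = 0.00828), and CCL20 differed by 0.73 ± 0.35 (limma adjusted p = 0.457).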

How the data were processed

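MDA-MB-468 RNA was measured on 11 arrays, grouped by their titles. The authors deposited log2 values of 53617 probe sets for which the submitters' processing notes name Affymetrix Expression Console; its version, algorithm, annotation build and normalization across arrays have no entry in these sources. The log base was inferred from the range, 0.38 to 12.31. No detection calls were used, and the number of arrays limits the precision.

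Of the probe sets, 23871 carried exactly 1 gene symbol, 1842 several and 27904 none. By gene number 22569 matched RefSeq (GRCh38.p14), 90 symbols were updated, and the probe set with the highest mean stood for a gene. Genes that reached 2.53, the median of all probe set means, on at least 2 arrays were tested in R 4.3.3 with limma 3.58.1 (1 mean per group, 7 residual degrees of freedom, two-sided, Benjamini-Hochberg over all genes, called under 0.05), after a check on simulated data. Errors of changes are moderated standard errors. The members, lists and tests were chosen with earlier results of these data known. Named were the 10 members, up to 4 called genes per list and comparison, and the 3 genes most correlated with each member; other list genes named were chosen after their values were seen. Promoters came from RefSeq and were aligned with Biopython 1.88; protein sequences were not used here. Alternatives were other scalings, filters, weights, a replicate block, averaged probe sets, a variance trend and leaving out each array.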

Additional observations from a re-analysis of the deposited data

How the results depend on the processing

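Of 60 changes of members (10 genes, 6 comparisons), 29 kept their sign and their side of the threshold under all 19 alternatives. The 8 called changes never turned, and 9 changes crossed the threshold somewhere; the report gives them, with the array or setting. Members called under array weights numbered 1 for TNF, 1 for apigenin and 2 for TNF plus apigenin against TNF. That last count was also 2 after quantile normalization, a median shift, a stricter filter and a variance trend. Leaving out 1 array gave 1 to 4 members for apigenin, 0 to 2 for TNF plus apigenin against TNF and 1 to 4 for TNF plus apigenin against control. Over all genes the counts were 111, 581, 169, 447, 91 and 4 in the order of the report's comparisons (TNF, apigenin, the combination against TNF, against control and against apigenin, the interaction). Quantile normalization gave 186 for TNF, 510 and 1233 for the combination against TNF and control and 7 for the interaction. Array weights gave 221, 207, 391, 1197 and 32 for the first 5. A median shift gave 173 for the combination against apigenin, and a variance trend 8 for the interaction. Leaving out 1 array gave 60 to 128, 84 to 1290, 85 to 197, 206 to 538, 18 to 598 and 0 to 7. For apigenin the 84 came without apigenin 1 and the 1290 without apigenin 2. A replicate block gave 106, 712, 174, 435, 73 and 0, and called S100A9 for the combination against control (-0.98, adjusted p = 0.0237). Whether the numbers pair the arrays was not settled: deviations of same-numbered arrays correlated at -0.24 to 0.28 (15 pairs, 4 over 0.1). Those of other-numbered arrays correlated at -0.39 to 0.19 (30 pairs, 8 over 0.1), and 6 of 11 arrays matched their own number best. Uncalled members with small changes turned sign. Array weights put S100A2 at -0.03 for TNF. Quantile normalization gave, for apigenin, 0.08 (S100A4), 0.02 (S100A6), 0.25 (S100A10) and 0.31 (S100A11); for the combination against TNF, -0.02 (S100P); against apigenin, -0.05 (S100A7A), -0.08 (S100A6) and -0.12 (S100A10); and -0.22 for the interaction of S100A11. The block put S100A7A at -0.03 against apigenin. Leaving out 1 array gave these ranges. For TNF against control: S100A8 -0.14 to 0.17, S100A9 -0.38 to 0.1, S100A2 -0.04 to 0.28, S100P -0.21 to 0.06. For apigenin against control: S100A4 -0.6 to 0.17, S100A6 -0.35 to 0.02, S100A11 -0.14 to 0.13. For TNF plus apigenin against TNF: S100A4 0 to 0.31, S100A11 -0.01 to 0.2, S100P -0.05 to 0.17. For TNF plus apigenin against control: S100A2 -0.27 to 0.06, S100A6 -0.21 to 0.18, S100A11 -0.17 to 0.04, S100P -0.18 to 0.09. For TNF plus apigenin against apigenin: S100A7A -0.21 to 0.31, S100A6 -0.02 to 0.25, S100A11 -0.2 to 0.07. For interaction of TNF and apigenin: S100A2 -0.05 to 0.31, S100A4 -0.01 to 0.75, S100A11 -0.03 to 0.23. The cause was not tested. Values near 2.53, as of S100A2 and S100P, limit what can be seen.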

Other observations

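The 5 further S100 genes that were not tested lay near or below the median of the probe set means in every group. S100A12, calgranulin C, lies between S100A9 and S100A8 and had means of 2.23 in control, 1.96 with TNF, 1.93 with apigenin and 2.02 with both. S100A7L2, between S100A7A and S100A7, had means of 1.79, 1.77, 1.99 and 1.85 in the same order. S100A1, the heart and muscle member, had means of 2.19, 2.12, 1.78 and 2.10. S100A5 had means of 1.64, 1.82, 1.67 and 1.81, and S100G, the vitamin D responsive calbindin, of 1.25, 1.33, 1.46 and 1.28. With values this low a fall could not have been seen on these arrays.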
